A study of Homo sapiens with 6 samples.

Results

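HCT116 cells carrying the first CRISPR guide against MUC3A (KO1) were compared with control cells (WT) by poly(A) RNA sequencing, with 2 libraries in each group. HCT116 is an established human colorectal carcinoma cell line. KO1 cells received lentiCRISPR v2, a lentivirus that carries the Cas9 nuclease and a guide RNA. The protocol in the labels describes a scrambled control virus too, and gives KO1 and control cells the same infection, at 10 infectious particles per cell (multiplicity of infection), and the same puromycin selection (2 µg/mL, 72 h) to remove uninfected cells. Other labels call the control cells wild type, and whether their virus carried Cas9 is not stated. Nothing in the labels says whether KO1 is a clone or a pool of selected cells, nor that a group's 2 libraries are separate cultures. In the fits with a pair term, explained below, p-values therefore measure only how far group differences vary between the library pairs. That spread is shared among genes and may be technical. A gene entered the comparison with a summed count of at least 40 over the 4 libraries, a limit that 18 genes met exactly and 22 genes missed at 39. This took 12337 of the 15548 genes listed for KO1 and WT, and of the 15977 genes listed in the whole series, which also holds 2 libraries of a second guide (KO2). A rare gene could pass the count limit through the group in which it was high.

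MUC3A encodes a membrane-bound mucin. Such mucins have a large, heavily glycosylated extracellular part that stands on the surface of intestinal epithelial cells, a single membrane span and a short cytoplasmic tail, and they are known as a barrier layer and as partners of growth factor receptors. The title of the series links MUC3A to PI3K, Akt and mTOR signalling, the pathway that couples growth factor receptors to protein synthesis and cell growth. Beside that pathway, the gene groups described here cover the epithelial cytoskeleton and its anchorage, growth factor ligands, p53 targets, intestinal factors and metabolism. The gene lists and their members were chosen with earlier results of these data known. The shares of members called are therefore set in part by that choice, and beside the share of all genes they are a description.

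The guide is shown first because the groups are defined by it. The capitals in the target site mark the PAM, the short motif that Cas9 needs beside the matched bases.
KO1 guide: gaaggcaaacttggacgtcg
MUC3A target site with PAM: gaaggcaaacttggacgtcgGGG
By sequence match to GRCh38 the 20 guide bases lie on chromosome 7 from 100952090 to 100952109, on the opposite strand from MUC3A. The site is coding sequence and lies in exon 2 of a transcript with 12 exons and of another with 11. No other annotated gene matched the guide next to a PAM with 1, 2 or 3 mismatches, and 5 genes matched with 4. Of these 5, C4orf54 was below the count limit. COL5A2 had a log2 fold change of −0.22 ± 0.40 (SE) and SLC4A5 of −0.34 ± 0.55. WDR37 stood at −0.06 ± 0.15, and none of these 3 passed the threshold in edgeR (adjusted p = 0.839 to 0.906). Introns and intergenic sequence were not searched.

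MUC3A transcript stood at 52.7 and 25.0 CPM (counts scaled to a common library total, here normalised with TMM) in the 2 WT libraries and at 52.5 and 28.4 CPM in the 2 KO1 libraries. The groups overlapped, and the 2 libraries within a group differed far more than the groups did. The log2 fold change of KO1 against WT was 0.08 ± 0.13 (SE, n = 2 libraries in each group) and did not pass in edgeR (adjusted p = 0.828). It turned to −0.13 when the lower WT library was left out and to −0.03 when the higher KO1 library was left out. A small insertion or deletion at the cut can leave the transcript level as it was, and gene counts are therefore no check of the knockout label. In RNA from a whole culture, fewer cells that express a gene and less RNA of it per cell cannot be told apart, here and below.

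Libraries held 13638724 to 14370065 counts each, and 3 counts corresponded to 0.195 to 0.235 CPM. Each group has a library whose name starts with HCT and a library whose name starts with HCT116, and the labels do not explain this prefix. Across genes, the difference between the prefixes in WT correlated at 0.888 with that in KO1 (a description over genes, which share depth and library), so the prefix entered the edgeR model as a pair term. Values below are given in the order HCT, HCT116. With the pair term the biological coefficient of variation was 0.0783, against 0.412 without it, and without it 0 genes passed the threshold (99 at an unadjusted p under 0.05). Every call below therefore rests on reading the prefix as a pair. The fit has 1 residual degree of freedom and in effect shares a single spread among all genes, which gives very small p-values. For this reason a second fit on all 6 libraries of the series, in which the spread is larger (coefficient of variation 0.118), is set beside the calls. It includes the same 4 libraries, so passing in it is not independent support. The fits are called the 4-library and the 6-library fit.

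In the 4-library fit 903 of 12337 genes (7.32%) differed between KO1 and WT at an adjusted p of 0.05 by edgeR, 572 higher (4.64%) and 331 lower (2.68%) in KO1. Most differences were small. The median size among called genes was 1.46-fold, with 492 genes below 1.5-fold, 229 from 1.5-fold to 2-fold, 139 from 2-fold to 4-fold and 43 above 4-fold. Both KO1 libraries lay above both WT libraries, or both below, for 400 of the 903 called genes, against 12.2% of all tested genes (6.58% above and 5.57% below). The ratio had the same sign in both pairs for 900 of the 903, against 7576 of all 12337 genes. A fit with a pair term favours genes whose pairs agree, so this agreement follows in part from the calling. In the 6-library fit 154 genes passed (1.25%), 99 higher (0.802%) and 55 lower (0.446%), and all 154 were among the 903 in the same direction. DESeq2 with the pair term called 262 genes and limma-voom 829. Fits with a library left out, here and below, start from all 6 libraries, so their counts compare with those of the 6-library fit. Leaving out a library, in a fit on the other 5 of the series, gave 218 genes where WT lost its HCT library and 68 where WT lost its HCT116 library. It gave 108 where KO1 lost its HCT library and 107 where KO1 lost its HCT116 library.

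**Figure D1:**
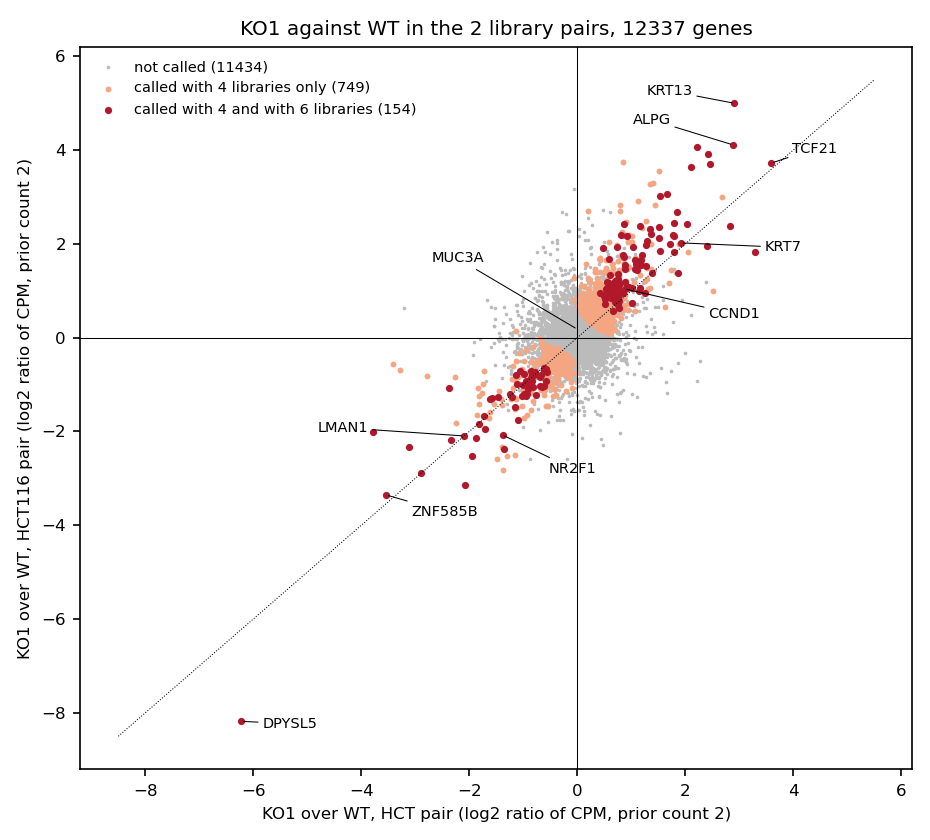
Log2 ratio of KO1 over WT in the HCT pair (horizontal axis) and in the HCT116 pair (vertical axis) for each of the 12337 tested genes, with a dotted line of equal ratios. The 903 called genes, 154 of them called in both fits, lie mostly in the quadrants of equal sign, which a fit with a pair term favours. DPYSL5 stands apart at the lower left while MUC3A lies near 0 in both pairs.

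The gene with the largest fall was DPYSL5, a member of the collapsin response mediator family that acts on the neuronal cytoskeleton. It stood at 40.3 and 41.2 CPM in WT and at 0.400 and 0 CPM in KO1, that is 619 and 526 reads against 6 and 0 reads. Its transcript was thus close to the limit of detection in both KO1 libraries (6-library fit in edgeR: log2 fold change −7.54 ± 0.39, SE, adjusted p = 2.12e-06). ZNF585B, a KRAB zinc finger gene, stood at 13.9 and 6.82 CPM in WT and at 1.07 and 0.538 CPM in KO1. Both KO1 libraries lay far below both WT libraries, a 12.8-fold fall. Its close copy ZNF585A, which may share reads with it, stood at 3.90 and 1.25 CPM in WT and 5.33 and 1.15 CPM in KO1 and did not pass the threshold (adjusted p = 0.802 in the 4-library fit).

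LMAN1, a lectin that carries glycoproteins from the endoplasmic reticulum to the Golgi, fell 4.32-fold, from 77.0 and 43.8 CPM to 17.8 and 10.1 CPM. The fall was nearly the same in both pairs, with log2 ratios of −2.10 and −2.09, and the adjusted p in the 6-library fit was 2.52e-05. NAV3, a microtubule-associated neuron navigator, fell 5.07-fold from 9.96 and 8.15 CPM to 1.86 and 1.69 CPM. TRMT2B, which methylates RNA in mitochondria, fell 4.15-fold from 10.1 and 11.99 CPM to 2.66 and 2.61 CPM. ACSL5, a long-chain acyl-CoA synthetase of the intestine, fell 3.26-fold from 76.2 and 83.0 CPM to 22.8 and 25.99 CPM. In NAV3, TRMT2B and ACSL5 the 2 libraries of a group lay close together and the groups were far apart. NR2F1, an orphan nuclear receptor of development, was the most abundant of the 12 largest falls, at 285 and 192 CPM in WT against 110 and 45.3 CPM in KO1. MAL2, a protein of apical membrane traffic, fell from 121 and 92.2 CPM to 47.3 and 17.8 CPM. ADGRF1, an adhesion G protein-coupled receptor, fell from 29.7 and 52.7 CPM to 8.99 and 13.6 CPM. HSPH1, a heat shock protein that assists HSP70, fell 2.77-fold from 139 and 172 CPM to 45.1 and 69.0 CPM.

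The largest rise was in KRT13, a keratin of stratified mucosal epithelium, at 2.47 and 4.39 CPM in WT and 19.4 and 145 CPM in KO1. Both KO1 libraries were above both WT libraries, and the rise was larger in the HCT116 pair (log2 ratio 5.00) than in the HCT pair (2.90). TCF21, a transcription factor of mesenchymal development, rose from 0.911 and 0.392 CPM to 12.6 and 6.92 CPM, that is from 14 and 5 reads to 189 and 90. PTAFR, the receptor for platelet-activating factor, rose 4.80-fold from 3.12 and 2.59 CPM to 13.2 and 14.5 CPM. RGS5, a brake on G protein signalling, rose 4.52-fold from 7.94 and 2.19 CPM to 28.97 and 14.8 CPM. For PTAFR and RGS5 the KO1 libraries were above both WT libraries. PRF1, which encodes perforin and is known from cytotoxic lymphocytes, rose 3.52-fold from 19.6 and 21.1 CPM to 68.6 and 74.7 CPM, with nearly equal ratios in the pairs (log2 1.80 and 1.82). TNFSF9, the ligand of 4-1BB, rose 2.62-fold from 61.0 and 74.2 CPM to 159 and 194 CPM. SYT8, UPK3B and TRIM29, at 0.862 to 2.19 CPM in WT, rose to between 3.26 and 18.8 CPM in KO1.

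SLCO2A1, LY6D, FAM131B and GPR15 were the called genes whose pairs differed most. The prostaglandin transporter SLCO2A1 had log2 ratios of 0.85 and 3.76 and LY6D of 0.19 and 2.71, while FAM131B had −3.41 and −0.57 and GPR15 −3.28 and −0.69. All 4 were under 6 CPM in every library and none passed in the 6-library fit.

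All 24 of the largest rises and falls also passed in the 6-library fit (edgeR, n = 2 libraries per group). They were chosen on 4 of these 6 libraries, so this is a description. With each of the 4 libraries left out in turn, 18 of the 24 passed every time. SYT8 did not pass without either HCT116 library, TRIM29 without the HCT116 library of WT, and FGF9 and SEMA3A without the HCT library of KO1. NRG1 passed solely without the HCT library of WT, and UPK3B in none of these fits.

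**Figure D2:**
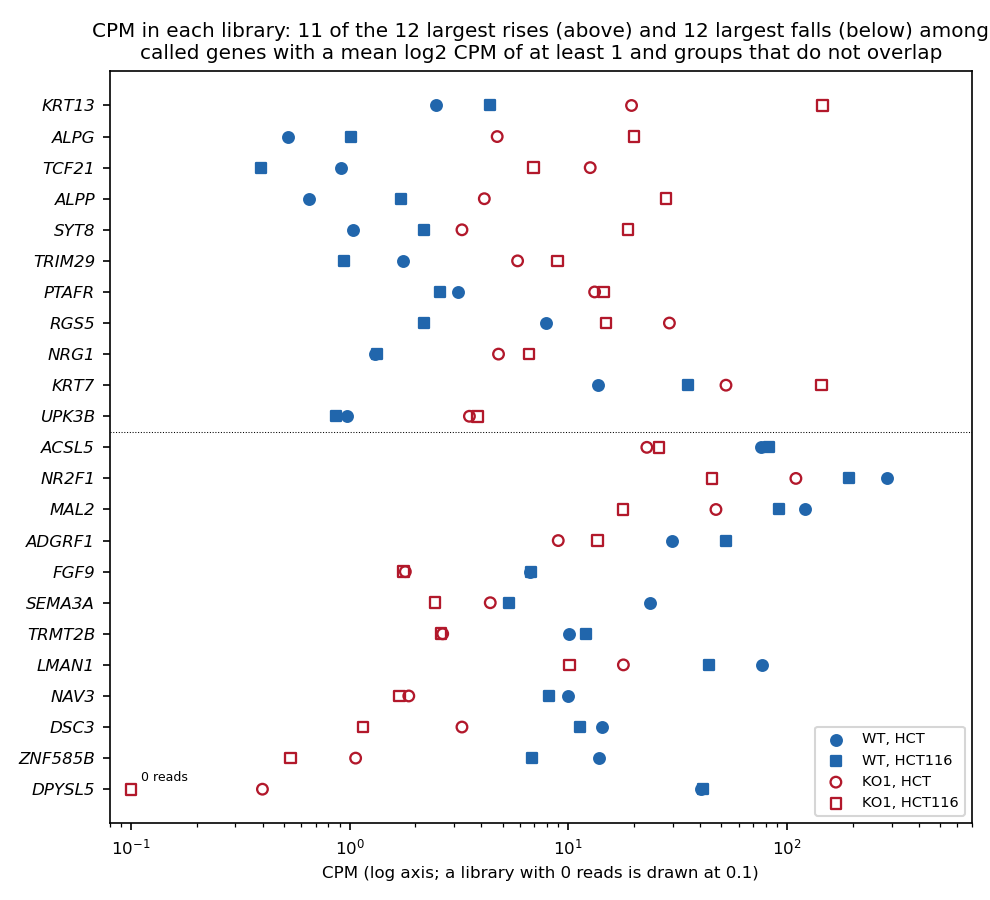
CPM on a log axis in each of the 4 libraries for 11 of the 12 largest rises and for the 12 largest falls (mean log2 CPM from 1 up), with filled symbols for WT and open symbols for KO1. In each row both open symbols lie on the same side of both filled symbols, as the selection required, and DPYSL5 had 0 reads in the HCT116 library of KO1.

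Keratins rose together in KO1. Keratins are the intermediate filament proteins of epithelial cells, and simple epithelia such as the colon use KRT8, KRT18 and KRT19, while KRT5, KRT13, KRT15 and KRT16 belong to stratified epithelia and KRT7 to ducts and bladder. Of 20 listed keratins 12 were expressed enough to test, and 11 of the 12 were higher and 0 lower in the 4-library fit, against 4.64% of all genes higher. This list, like those below, was chosen with earlier results of these data known, so the share is a description. The median log2 fold change over the 12 was 1.46, against −0.004 over all genes, with 0.96 in the HCT pair and 1.34 in the HCT116 pair. KRT7 rose 3.96-fold from 13.7 and 35.4 CPM to 52.5 and 144 CPM, without overlap of the groups. KRT80, a keratin-like filament protein found near desmosomes, rose 3.25-fold from 16.3 and 25.6 CPM to 47.3 and 92.1 CPM. KRT15 rose from 19.001 and 31.7 CPM to 45.8 and 61.5 CPM. KRT5, at 0.325 and 0.314 CPM in WT and 0.666 and 2.84 CPM in KO1, passed the count limit mostly through its KO1 reads.

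The abundant keratins of simple epithelium moved less. KRT8 stood at 3162 and 4292 CPM in WT and at 4255 and 8096 CPM in KO1, so the HCT library of KO1 lay below the HCT116 library of WT and the groups overlapped (log2 fold change 0.67 ± 0.12, SE). KRT19 rose from 1737 and 2022 CPM to 2656 and 3352 CPM, with the groups apart. KRT18 rose from 1061 and 1643 CPM to 1362 and 3140 CPM, again with overlap. KRT10, a keratin of cornified skin, was the member that did not pass (log2 fold change −0.07). In the 6-library fit 4 keratins remained higher (KRT13, KRT7, KRT80 and KRT15) and KRT8, KRT18 and KRT19 did not (adjusted p = 0.116 to 0.137). With a library left out the count of higher keratins was 5 where this was the HCT library of WT and 4 for each of the other 3, and KRT81 and KRT86 are near-identical genes whose reads may be split between them.

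Genes of desmosomes and stratified epithelium changed in both directions, with 8 of 19 tested members higher and 4 lower in the 4-library fit, and 4 higher and 2 lower in the 6-library fit. In the 4-library fit 63.2% of members were called, against 7.32% of all genes. The desmocollins, desmosomal cadherins, were on the falling side. DSC3, the desmocollin of basal stratified layers, fell 5.87-fold from 14.3 and 11.3 CPM to 3.26 and 1.15 CPM. Its relative DSC2 fell from 61.6 and 37.9 CPM to 41.2 and 23.8 CPM. EVPL, a protein of the cornified envelope, and LAD1, a basement membrane anchor, fell by 0.61 and 0.45 on the log2 scale. On the rising side stood the serine proteases KLK6 and KLK10 and the calcium-binding protein S100A2, all known from squamous epithelium. KLK10 was at 19.6 and 30.9 CPM in WT and 27.4 and 117 CPM in KO1, a rise carried mostly by the HCT116 pair. KLK6 was at 45.4 and 103 CPM in WT and 77.1 and 215 CPM in KO1. SFN (14-3-3 sigma) and SERPINB5 (maspin) rose by 0.61 and 0.67 on the log2 scale. The plaque proteins DSP, PKP2, PKP3 and JUP and the cadherin DSG2 did not pass, with log2 fold changes of −0.15 to 0.07. With a library left out the higher count was 5 (HCT, WT), 1 (HCT116, WT), 4 (HCT, KO1) and 1 (HCT116, KO1).

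Laminins and integrins, the basement membrane proteins and their receptors, were the other adhesion group with calls in a single direction. Of 21 tested, 10 were higher (47.6%, against 4.64% of all genes higher) and 0 lower, with a median log2 fold change of 0.19 over all members. ITGB4, the integrin subunit that anchors hemidesmosomes to laminin, rose 2.05-fold from 839 and 579 CPM to 1543 and 1323 CPM, so that both KO1 libraries exceeded both WT libraries. The laminin chain LAMB3 rose from 114 and 83.9 CPM to 178 and 172 CPM, and the chain LAMA3 from 15.2 and 5.72 CPM to 26.1 and 14.5 CPM. COL17A1, the transmembrane collagen of hemidesmosomes, rose from 4.16 and 3.68 CPM to 6.99 and 14.8 CPM, and ITGA6, the partner of ITGB4, by 0.37 on the log2 scale. DST and PLEC, which link hemidesmosomes to keratin, stood at log2 fold changes of 0.04 and 0.09 and did not pass. In the 6-library fit ITGB4 and LAMB3 passed and the other 8 did not, among them the collagen receptor subunit ITGA2 (150 and 29.8 CPM in WT, 189 and 63.4 CPM in KO1). With a library left out the count was 5 (HCT, WT), 0 (HCT116, WT), 1 (HCT, KO1) and 2 (HCT116, KO1).

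Genes of the epithelial-mesenchymal transition changed in both directions. Vimentin (VIM), the filament protein of mesenchymal cells, was low in WT at 10.7 and 12.3 CPM and fell 2.39-fold to 4.53 and 5.07 CPM. Fibronectin (FN1) fell from 66.4 and 18.9 CPM to 45.1 and 11.7 CPM, while E-cadherin (CDH1) rose from 151 and 61.9 CPM to 183 and 91.5 CPM. The epithelial genes CLDN3 and GRHL2 fell too, by 0.83 and 0.60 on the log2 scale, and S100A4 rose 1.81-fold from 481 and 705 CPM to 743 and 1487 CPM. Of 23 tested members 2 were higher and 5 lower (30.4% called, against 7.32% of all genes). The remaining lower call was SPARC, whose log2 ratio was −1.14 in the HCT pair and 0.15 in the HCT116 pair. SPARC did not pass in the 6-library fit. S100A4, VIM and CLDN3 passed in the 6-library fit, while FN1, CDH1 and GRHL2 did not. In the 6-library fit 1 was thus higher and 2 lower, and leaving any single library out of it gave no more than these. The transcription factors ZEB1, SNAI1, SNAI2 and TWIST1 stood at log2 fold changes of −0.12 to 0.38 and did not pass.

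Ligands of the EGF receptor family changed in opposite directions, while the receptors did not pass. Amphiregulin (AREG) stood at 209 and 140 CPM in WT and 96.3 and 70.0 CPM in KO1, and epiregulin (EREG) at 359 and 289 CPM in WT and 190 and 135 CPM in KO1. Both KO1 libraries lay below both WT libraries for both ligands, with a log2 fold change of −1.06 ± 0.10 for AREG and −1.004 ± 0.095 for EREG (SE, 2 libraries per group). TGFA, which binds the same receptor, rose 1.71-fold from 120 and 48.0 CPM to 205 and 82.7 CPM, equally in both pairs (log2 0.77 and 0.78) although the groups overlapped. NRG1, a ligand of ERBB3 and ERBB4, rose 4.25-fold from 1.30 and 1.33 CPM to 4.79 and 6.61 CPM. EPS8L3, a relative of the receptor substrate EPS8, rose from 0.846 and 0.392 CPM to 4.13 and 6.54 CPM. EPS8L3 would have missed the count limit had KO1 stood at the WT level, so the higher count below is partly set by that limit. EGFR, ERBB2 and ERBB3 stood at log2 fold changes of −0.09, 0.06 and −0.35, and HBEGF at 0.00. Of 19 tested members 4 were higher and 2 lower (31.6% called, against 7.32% of all genes), and 3 and 2 in the 6-library fit. AREG and EREG had adjusted p of 0.00376 and 0.00159 in edgeR in the 6-library fit, and TGFA of 0.0497. The lower count was 2 with each library left out, and the higher count was 3 (HCT, WT), 0 (HCT116, WT), 1 (HCT, KO1) and 2 (HCT116, KO1).

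Downstream of these receptors, 5 of 20 tested MAPK feedback and ETS target genes were higher (25.0%, against 4.64% of all genes) and 3 lower, and 3 and 0 in the 6-library fit. Cyclin D1 (CCND1), which drives entry into the cell cycle and is also a Wnt target, rose 1.95-fold from 612 and 481 CPM to 1128 and 989 CPM with the groups well apart. DUSP4, a phosphatase that limits ERK, rose from 308 and 152 CPM to 467 and 322 CPM, and MYEOV, a neighbour of CCND1 in the genome, from 94.5 and 141 CPM to 190 and 236 CPM. PHLDA1, ETV1 and EGR1 fell by 0.63, 0.69 and 0.42 on the log2 scale in the 4-library fit, and none of the 3 passed in the 6-library fit. The feedback genes SPRY2, SPRY4, SPRED1, DUSP5 and DUSP6 did not pass (log2 fold changes −0.41 to 0.27). Leaving out a library gave a higher count of 3 (HCT, WT), 2 (HCT116, WT), 1 (HCT, KO1) and 3 (HCT116, KO1), and a lower count of 0. Among 21 AP-1 and immediate early genes 5 were higher and 1 lower (28.6% called, against 7.32% of all genes). KLF2 rose from 216 and 191 CPM to 351 and 324 CPM, FOSL2 from 112 and 37.6 CPM to 170 and 77.3 CPM, and both passed in both fits. Leaving out a library gave a higher count of 3 (HCT, WT), 0 (HCT116, WT), 0 (HCT, KO1) and 3 (HCT116, KO1). FOS, JUN, FOSL1 and MYC stood between −0.11 and 0.16.

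Direct targets of p53 that passed were all higher in KO1, 13 of 31 tested (41.9%, against 4.64% of all genes higher), with 0 lower. The group holds cell cycle brakes, DNA repair genes and repressors of mTORC1. CDKN1A (p21), an inhibitor of cyclin-dependent kinases, stood at 318 and 308 CPM in WT and 514 and 684 CPM in KO1, with the groups apart (log2 fold change 0.92 ± 0.10, SE). GDF15, a secreted stress factor, rose from 306 and 303 CPM to 446 and 598 CPM, and PLK2 2.32-fold from 171 and 132 CPM to 313 and 390 CPM. SESN1 rose from 22.3 and 12.5 CPM to 34.7 and 27.0 CPM. The repair genes DDB2 and POLH and the ubiquitin ligase MDM2 rose by 0.54, 0.62 and 0.43 on the log2 scale. The cell death genes BAX, BBC3, PMAIP1 and FAS did not pass, at log2 fold changes of −0.19 to 0.54. The median over the 31 members was 0.40, with 0.18 in the HCT pair and 0.50 in the HCT116 pair. In the 6-library fit PLK2, CDKN1A and SESN1 passed and the other 10 did not. With a library left out the count was 7 (HCT, WT), 1 (HCT116, WT), 1 (HCT, KO1) and 2 (HCT116, KO1).

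**Figure D3:**
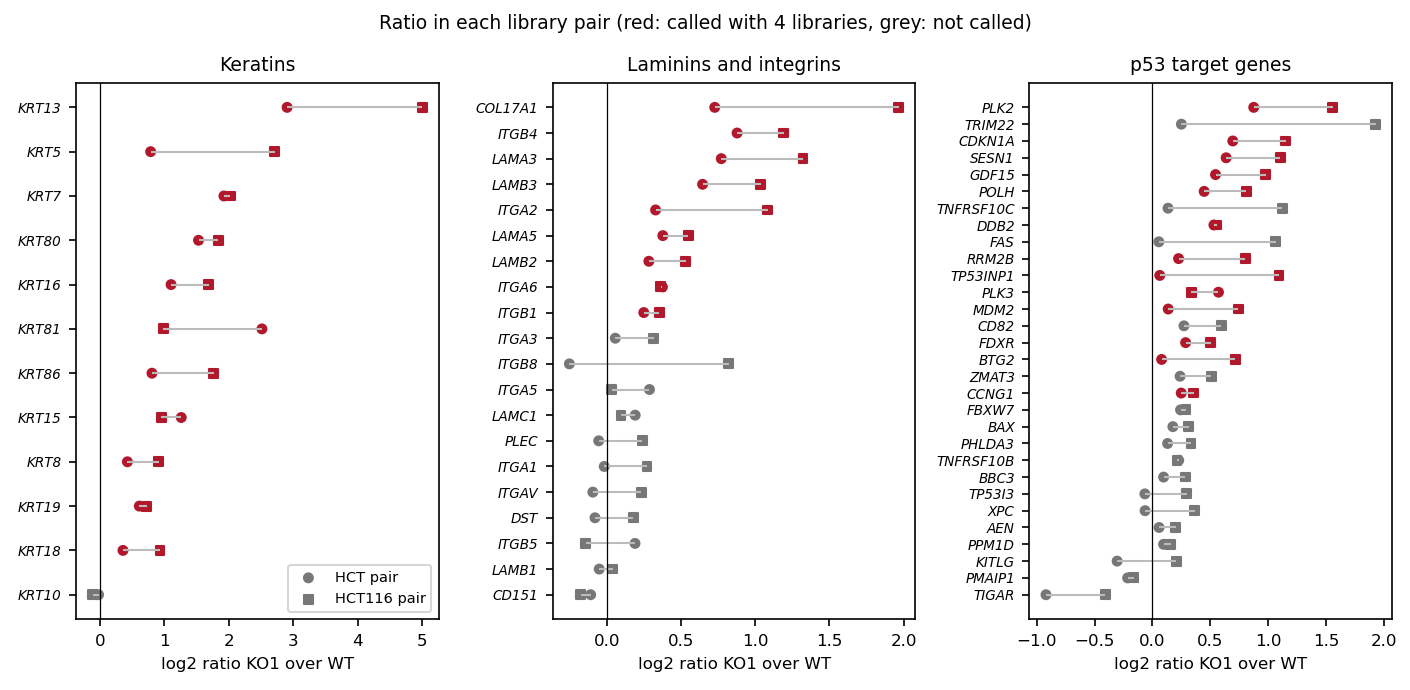
Log2 ratio of KO1 over WT in the HCT pair (circles) and in the HCT116 pair (squares) for tested keratins, laminins and integrins, and p53 targets, in red where the gene passed in the 4-library fit. Nearly all red symbols lie right of 0 in both pairs, and in the p53 panel the squares often lie further right than the circles, with medians of 0.50 and 0.18.

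Of 22 tested cyclins, CDKs and inhibitors 3 were higher (13.6%, against 4.64% of all genes higher) and 0 lower in the 4-library fit. CCND1 and CDKN1A also passed in the 6-library fit. RB1, the third call, stood at 81.6 and 27.6 CPM in WT and 84.8 and 50.4 CPM in KO1, so the groups overlapped. Its log2 ratio was 0.05 in the HCT pair and 0.86 in the HCT116 pair, and it passed neither in the 6-library fit (adjusted p = 0.443 in edgeR) nor with any library left out. The higher count was then 2 (HCT, WT), 1 (HCT116, WT), 1 (HCT, KO1) and 2 (HCT116, KO1). Of 25 genes of G2 and mitosis 0 passed in either fit, and log2 fold changes lay between −0.25 (CCNB1) and 0.20 (CENPE), with MKI67 at −0.12 and TOP2A at 0.19. In edgeR 4 of the 25 had an unadjusted p under 0.05, and DESeq2 and limma-voom called 0. Among 15 BCL2 family genes BCL2L1, which protects against cell death, was the single call in the 4-library fit (6.67%, against 7.32% of all genes). It rose from 300 and 413 CPM to 356 and 535 CPM (log2 fold change 0.31) and did not pass in the 6-library fit.

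PI3K, Akt and mTOR components, the pathway in the series title, were near the control level. Of 35 tested, 0 were higher and 2 lower (5.71%, against 7.32% of all genes called in either direction), and the median log2 fold change was −0.01. RPTOR, the scaffold of mTORC1, stood at 99.7 and 138 CPM in WT and 66.1 and 99.3 CPM in KO1, with both KO1 libraries below both WT libraries by a small margin (log2 fold change −0.53 ± 0.10, SE, adjusted p = 9.82e-06, and 0.0641 in the 6-library fit). EIF4EBP1, the repressor of translation that mTORC1 phosphorylates, stood at 64.0 and 162 CPM in WT and 59.7 and 111 CPM in KO1, with overlap. The catalytic subunits PIK3CA, PIK3CB and PIK3CD, the kinases AKT1, AKT2 and MTOR, and RICTOR, TSC1 and TSC2 stood between −0.16 and 0.07. Transcript levels do not measure the phosphorylation through which this pathway signals. Among 18 brakes of mTORC1 and FOXO targets 3 were higher and 1 lower (22.2% called, against 7.32% of all genes). SESN1 is described above. DDIT4 (REDD1), which restrains mTORC1 under stress, stood at 320 and 149 CPM in WT and 391 and 215 CPM in KO1, and BCL6 fell by 0.43 on the log2 scale. Neither passed in the 6-library fit.

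Intestinal transcription factors and differentiation markers were called in both directions, 7 of 14 tested higher and 3 lower, with the other 21 of 35 listed not tested. Calls thus made up 71.4% of those tested, against 7.32% of all genes. HNF4A, a nuclear receptor that maintains intestinal epithelium, rose 2.13-fold from 6.44 and 5.02 CPM to 14.4 and 10.1 CPM. KLF4 and KLF5, which mark differentiated and proliferating crypt cells respectively, both rose, KLF4 from 43.3 and 18.4 CPM to 79.97 and 34.9 CPM and KLF5 from 95.7 and 38.3 CPM to 112 and 87.3 CPM. PLEKHS1 and CEACAM1 rose from between 0.549 and 2.08 CPM to between 3.06 and 5.54 CPM, and reads of CEACAM1 may be shared with its close relatives. PLEKHS1 would have missed the count limit had KO1 stood at the WT level, so the share called is partly set by that limit. DPP4 and HES1 were among the lower calls, at log2 fold changes of −0.88 and −0.52. The colon factor CDX2 stood at a log2 fold change of −0.31 and did not pass. In the 6-library fit HNF4A and PLEKHS1 remained higher and 1 member lower, and KLF4, KLF5, CEACAM1, DPP4 and HES1 did not pass. The higher count with a library left out was 3 (HCT, WT), 0 (HCT116, WT), 1 (HCT, KO1) and 2 (HCT116, KO1), and the lower count was 0 or 1.

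Beside MUC3A, 6 other mucins of 16 listed were tested. In the 4-library fit 2 were higher (28.6% of the 7 tested, against 4.64% of all genes higher). These 2 would have missed the count limit had KO1 stood at the WT level, so their number is partly set by that limit. MUC13, a membrane mucin of the gut, rose from 11 and 5 reads in WT to 32 and 67 reads in KO1, and MUC16, the ovarian antigen CA125, from 5 and 0 reads to 18 and 20 reads. MUC13 reached 2.13 and 5.15 CPM in KO1 and MUC16 1.20 and 1.54 CPM. Neither passed in the 6-library fit (adjusted p = 0.0637 and 0.170). MUC12, the neighbour of MUC3A, MUC5B, CD164 and MUC1 stood at log2 fold changes of 0.08, 0.18, 0.24 and −0.62 and did not pass.

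Placental-type alkaline phosphatases rose from a few reads per library. ALPP stood at 0.651 and 1.72 CPM in WT and 4.13 and 27.9 CPM in KO1, and ALPG at 0.521 and 1.02 CPM in WT and 4.73 and 19.99 CPM in KO1. Both genes were higher in both KO1 libraries, with the HCT116 library of KO1 far above the HCT library (log2 fold changes 3.61 ± 0.30 and 3.89 ± 0.34, SE). The bone, liver and kidney enzyme ALPL stood at −0.14 and did not pass. ALPP and ALPG are neighbours on chromosome 2 and close copies of each other, and the 200 bases upstream of each gene's start are shown to give a sense of that likeness. The sequences come from RefSeq (GRCh38.p14, plus strand), ALPP from chr2:232378551-232378750 and ALPG from chr2:232406644-232406843, and capitals mark bases that differ or have no partner in the other sequence.
ALPP: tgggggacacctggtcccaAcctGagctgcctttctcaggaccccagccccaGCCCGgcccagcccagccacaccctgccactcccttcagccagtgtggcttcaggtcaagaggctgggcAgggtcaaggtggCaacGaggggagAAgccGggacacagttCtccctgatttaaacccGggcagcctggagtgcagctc
ALPG: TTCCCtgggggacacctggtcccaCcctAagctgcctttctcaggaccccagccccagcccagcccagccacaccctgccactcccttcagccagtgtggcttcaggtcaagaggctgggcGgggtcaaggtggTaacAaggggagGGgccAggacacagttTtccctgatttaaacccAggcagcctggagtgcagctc
The aligned pair held 185 identical bases, 10 mismatches and 10 unpaired bases, or 94.9% identity over aligned bases. Reads from genes this alike may be split between them, so which copy gave a read is uncertain.

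Genes of the secretory pathway around LMAN1 did not follow it. Of 33 tested genes of endoplasmic reticulum folding and cargo transport LMAN1 was the single call (3.03%, against 7.32% of all genes). The rest lay between −0.25 and 0.19 on the log2 scale. MCFD2, the partner of LMAN1 in the cargo receptor, stood at 0.08, LMAN2 at −0.25 and the chaperone HSPA5 at −0.06. Among 29 ATF4 targets, genes of amino acid supply and stress, 2 were higher and 5 lower (24.1% called, against 7.32% of all genes). TRIB3, a pseudokinase that binds Akt, fell 1.81-fold from 37.2 and 81.8 CPM to 20.6 and 45.2 CPM, with equal log2 ratios of −0.85 in both pairs, and passed in both fits. The serine synthesis gene PHGDH and the asparagine synthetase gene ASNS fell by 0.46 and 0.40 on the log2 scale in the 4-library fit, mostly in the HCT116 pair, and did not pass in the 6-library fit. ATF3 rose from 13.4 and 11.3 CPM to 26.1 and 18.8 CPM in the 4-library fit alone. The lower count with a library left out was 3 (HCT, WT), 0 (HCT116, WT), 0 (HCT, KO1) and 1 (HCT116, KO1).

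Glycolysis and hypoxia genes gave 7 higher and 1 lower of 34 in the 4-library fit and 0 in the 6-library fit. That is 23.5% called in the 4-library fit, against 7.32% of all genes. For the cholesterol and fatty acid genes and the NRF2 targets below the shares were 16.1% and 20.8%. SLC2A1, the glucose transporter GLUT1, stood at 903 and 518 CPM in WT and 1216 and 761 CPM in KO1, and EPAS1 (HIF2A) at 97.4 and 30.3 CPM and 133 and 48.1 CPM. Every gene called higher in this list lay higher in the HCT library of WT than in the HCT116 library of KO1, so the groups overlapped, and CA9, the lower call, had 2.02 and 1.25 CPM in WT and 0.466 and 0.384 CPM in KO1. Of 31 cholesterol and fatty acid genes 3 were higher (among them STARD4 and SREBF1, log2 fold changes 0.58 and 0.32) and 2 lower (FDPS and MVD, −0.30 and −0.29), and of 24 NRF2 targets 3 were higher and 2 lower, with the transporter ABCC3 at a log2 fold change of 0.63. None of these passed in the 6-library fit. FTL, LMNA and HMGA1, with KRT8, KRT18 and KRT19 the most abundant genes called, changed by 1.27-fold, 1.28-fold and 1.35-fold. All 6 were called in the 4-library fit alone.

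Axon guidance and neuronal cytoskeleton genes gave 8 higher and 4 lower of 35 tested (34.3% called, against 7.32% of all genes). The 4 lower were DPYSL5, NAV3 and the secreted semaphorins SEMA3A and SEMA3C. SEMA3A fell from 23.5 and 5.33 CPM to 4.39 and 2.46 CPM, more in the HCT pair (log2 ratio −2.38) than in the HCT116 pair (−1.07). SEMA3B, another secreted semaphorin, rose from 49.1 and 86.1 CPM to 77.8 and 157 CPM, and MAP6, which stabilises microtubules, from 14.3 and 7.37 CPM to 27.1 and 15.5 CPM. The other DPYSL genes were at log2 fold changes of 0.30 (DPYSL2, called), −0.03 (DPYSL3) and 0.03 (DPYSL4), so these relatives did not share the fall of DPYSL5. Among FGF genes 4 of 13 were higher and 1 lower (38.5% called). FGF9 fell from 6.70 and 6.74 CPM to 1.80 and 1.77 CPM, while FGF18 rose from 3.32 and 4.94 CPM to 8.32 and 13.99 CPM, FGF19, the intestinal hormone that restrains bile acid synthesis, by 0.54 on the log2 scale, and the receptor FGFR3 from 77.9 and 77.1 CPM to 112 and 158 CPM. FGF9 and FGFR3 passed in both fits, and FGF18 and FGF19 in the 4-library fit alone, as did SEMA3C and DPYSL2. With any library left out the higher count was 0 or 1 in the axon guidance list and 0, 1 or 2 in the FGF list, and it was 0 in both without either HCT116 library. Among synaptotagmins and exocytosis genes 3 of 23 were higher and 1 lower (17.4% called). SYT8 and SYTL2 rose in both fits, and SYTL2 did not pass without the HCT116 library of WT. SYT7 fell by 0.33 on the log2 scale, with the groups apart, in the 4-library fit alone.

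Wnt targets and feedback genes gave 2 higher and 4 lower of 19 (31.6% called, against 7.32% of all genes). For the TGF-beta and BMP genes and the YAP and TEAD list below the shares called were 21.1% and 15.8%. RNF43, a ubiquitin ligase that removes Wnt receptors from the surface, fell 2.33-fold from 44.8 and 67.4 CPM to 18.8 and 29.4 CPM, with both KO1 libraries below both WT libraries. DKK1, a secreted Wnt inhibitor, rose 2.14-fold from 686 and 325 CPM to 1067 and 960 CPM, but missed the threshold in the 6-library fit (adjusted p = 0.0657). The remaining lower calls were SOX4, EPHB2 and NOTUM, at log2 fold changes of −0.49, −0.39 and −0.36. None of them passed in the 6-library fit (edgeR adjusted p = 0.116 to 0.617). AXIN2, NKD1, LGR4, SOX9 and ZNRF3 stood between −0.34 and 0.23 and did not pass. Of the 19 Wnt genes 14 had a negative log2 fold change, with a median of −0.08. Of 19 TGF-beta and BMP genes BMP4 rose from 480 and 527 CPM to 647 and 1024 CPM, and ID2, a target of BMP signalling, fell from 121 and 69.9 CPM to 78.2 and 46.7 CPM, the single lower call beside 3 higher that include BMP7 (log2 fold change 0.45). BMP4 passed in the 6-library fit, and ID2 and BMP7 did not (adjusted p = 0.118 and 0.316). F3, the tissue factor that starts blood clotting, led the YAP and TEAD list (3 of 19 higher) with a 2.59-fold rise from 36.6 and 33.9 CPM to 83.5 and 99.95 CPM, followed by ANKRD1 and AMOTL2 at log2 fold changes of 1.54 and 0.47, while the core targets CTGF and CYR61 stood at 0.41 and −0.05 and did not pass. In the 6-library fit F3 passed, and ANKRD1 and AMOTL2 did not (adjusted p = 0.270 and 0.166). With each library left out in turn 1 gene was higher in the YAP and TEAD list and 1 lower in the Wnt list. In the TGF-beta and BMP list 1 was higher where WT lost its HCT library and 0 in the other fits.

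Of 27 interferon-stimulated genes OAS1 and IFI35 were higher in the 4-library fit (7.41% of members, against 4.64% of all genes higher). OAS1 rose from 5 and 7 reads to 27 and 30, and would have missed the count limit had KO1 stood at the WT level. The share of 7.41% is thus partly set by that limit. Neither OAS1 nor IFI35 passed in the 6-library fit. ISG15, IFIT1 and IFI6 stood between −0.08 and 0.25. Of 16 NF-kB factors and targets ICAM1 and TNFAIP2 were higher (12.5%) in the 4-library fit alone. In each fit with a library left out 0 members of either list passed. Among 8 HLA class I and antigen processing genes and 13 transcripts of the mitochondrial genome 0 passed in either fit, with log2 fold changes of −0.27 to 0.31. At an unadjusted p under 0.05 in edgeR the numbers were 0 and 1, and DESeq2 and limma-voom called 0 in both lists.

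**Figure D4:**
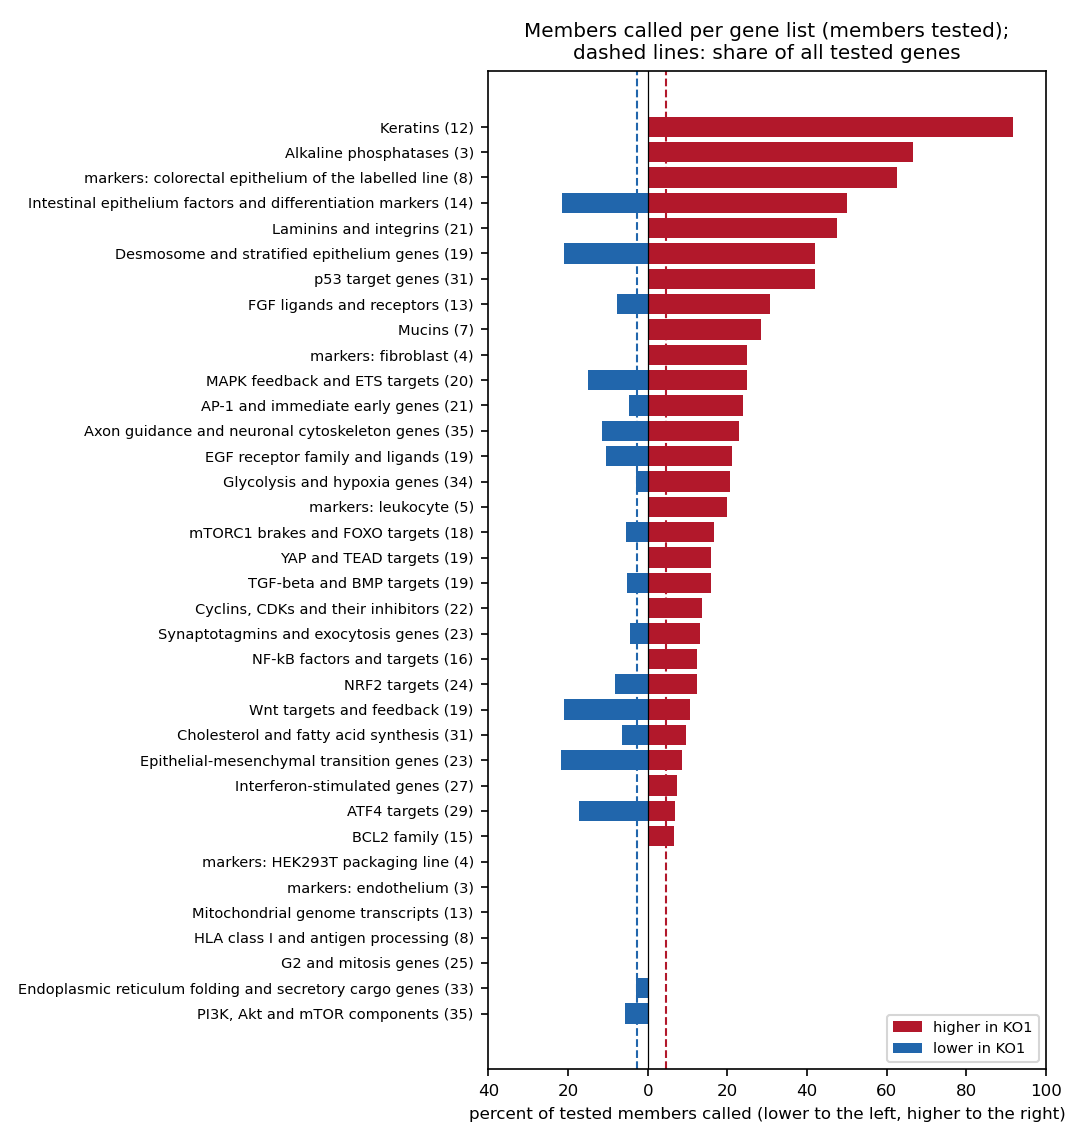
Percent of tested members called higher (right, red) and lower (left, blue) in KO1 for each gene list in the 4-library fit, with the number tested in brackets and dashed lines at the shares of all genes, 4.64% and 2.68%. Keratins reach the highest share at 11 of 12, and 5 lists have 0 members called. The lists were chosen with earlier results of these data known.

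Markers of other cell types were measured beside these groups. The epithelial markers EPCAM, CDH1, KRT8, KRT18, KRT19, CDX2, CLDN7 and ELF3 were expressed in all 4 libraries, while CDH17, VIL1, LGR5 and CEACAM5 had 0 to 6 reads per library, so those defining colon markers were near 0 in WT and KO1 alike. The 8 epithelial markers tested summed to 6591 and 8611 CPM in WT and 8989 and 15290 CPM in KO1, mostly from keratins. Of 16 leukocyte markers 5 passed the count limit and CD68, a lysosomal protein, rose from 7.55 and 8.47 CPM to 18.9 and 17.5 CPM, while PTPRC, the common leukocyte marker, had 1 read in WT and 0 in KO1. The 5 leukocyte markers summed to 32.1 and 28.5 CPM in WT and 44.7 and 36.0 CPM in KO1. Of 14 fibroblast markers 4 were tested and ACTA2 was the single call (25.0% of those tested), rising from 9.63 and 5.02 CPM to 14.05 and 16.1 CPM. DCN had 1 and 0 reads in WT and 0 in KO1. The 4 fibroblast markers summed to 80.4 and 50.3 CPM in WT and 83.0 and 56.1 CPM in KO1. Of endothelial markers 3 were tested and 0 passed, and of markers of HEK293T, the line the virus was made in, 4 were tested and 0 passed, with 0 at an unadjusted p under 0.05 in edgeR and 0 called by DESeq2 or limma-voom in both lists. Their sums were 13.8 and 17.9 CPM in WT and 14.8 and 14.5 CPM in KO1, and 28.3 and 40.2 CPM in WT and 25.2 and 35.7 CPM in KO1. What part these markers have in the other gene groups was not tested. CD68 and ACTA2 did not pass in the 6-library fit.

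Several genes outside the lists changed by more than 2-fold and passed in both fits. They were chosen after their values were seen. The insulin-like growth factor binding proteins IGFBP3 and IGFBP6 rose from 35.5 and 8.47 CPM to 90.8 and 42.9 CPM and from 51.6 and 131 CPM to 112 and 360 CPM. AQP3, the water and glycerol channel of epithelia, rose from 27.1 and 22.7 CPM to 49.8 and 122 CPM, TSPAN1 3.47-fold and the chloride channel protein CLIC3 3.06-fold. SUSD2 rose from 254 and 151 CPM to 469.5 and 419 CPM, and TBX3, a developmental repressor, from 15.2 and 15.0 CPM to 32.2 and 41.8 CPM. PARK7 (DJ-1), an antioxidant protein, fell 2.10-fold from 157 and 362 CPM to 82.5 and 157 CPM. CXCR4, the chemokine receptor, fell from 12.04 and 1.88 CPM to 3.93 and 0.692 CPM. Each of the other 8 genes passed with each library left out in turn, while CXCR4 passed in 2 of these 4 fits. The groups overlapped for IGFBP6 and CXCR4.

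The same genes were set beside the second guide, with every test from the 6-library fit and every CPM on the scaling of all 6 libraries. The comparisons of KO1 and of KO2 with WT share the 2 WT libraries, so the guides were compared with each other directly. Of the 98 called genes taken by the naming rule, 65 differed between KO1 and KO2 at an adjusted p of 0.05, 46 higher and 19 lower in KO1, against 9.82% of all genes (1212), and 33 did not pass. The 98 were chosen for a difference between KO1 and WT, so this share is a description. Without the pair term 0 of the 98 passed.

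KRT7, which stood at 52.5 and 144 CPM in KO1, was at 2.52 and 5.51 CPM in KO2, so the guides lay on opposite sides of WT (KO1 minus KO2 log2 4.56 ± 0.18, SE, edgeR adjusted p = 7.40e-08). CCND1 was at 1127 and 989 CPM in KO1 and 402 and 360 CPM in KO2, LAMB3 at 178 and 172 CPM in KO1 and 54.6 and 61.4 CPM in KO2, and F3 at 83.4 and 99.9 CPM in KO1 and 17.6 and 15.4 CPM in KO2. For each of these genes WT lay between the guides. LMAN1 was at 171 and 86.6 CPM in KO2 against 17.8 and 10.1 CPM in KO1, DSC3 at 50.6 and 35.1 CPM against 3.26 and 1.15 CPM, and SEMA3A at 158 and 93.2 CPM against 4.39 and 2.46 CPM. NRG1 and TCF21 had 0 reads in both KO2 libraries. DPYSL5 stood at 33.1 and 31.8 CPM in KO2, ACSL5 at 79.8 and 81.7 CPM, PRF1 at 22.6 and 24.5 CPM and ZNF585B at 13.1 and 7.65 CPM. For these 4 genes KO2 did not pass against WT (adjusted p = 0.404 to 0.979). MAP6 had 1 read in a KO2 library and 0 in the other. Not all keratins followed KRT7. KRT13 was higher than WT in KO2 too, at 9.28 and 18.4 CPM (log2 2.05 ± 0.43, edgeR adjusted p = 0.0182), and higher still in KO1 (KO1 minus KO2 2.14 ± 0.36). KRT8, KRT18, KRT19 and KRT80 did not pass for KO2 against WT (edgeR adjusted p = 0.143 to 0.968).

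For other genes the difference between guides did not pass. AREG was at 83.9 and 86.4 CPM in KO2 and 96.2 and 69.9 CPM in KO1 (difference −0.06 ± 0.15 on the log2 scale, adjusted p = 0.852). NAV3 was at 1.83 and 1.79 CPM in KO2 and 1.86 and 1.69 CPM in KO1 (−0.03 ± 0.35), RNF43 at 27.2 and 35.3 CPM in KO2 and 18.8 and 29.4 CPM in KO1 (−0.40 ± 0.15), and TRIM29 at 4.45 and 5.58 CPM in KO2 and 5.86 and 8.92 CPM in KO1 (0.55 ± 0.32). RGS5 was at 18.5 and 8.61 CPM in KO2 and 28.9 and 14.8 CPM in KO1 (0.72 ± 0.21, edgeR adjusted p = 0.0549). EREG passed by a small margin (−0.46 ± 0.13, adjusted p = 0.0386). MUC3A itself was at 30.1 and 24.5 CPM in KO2, and KO1 minus KO2 was 0.51 ± 0.18 (adjusted p = 0.104).

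**Figure D5:**
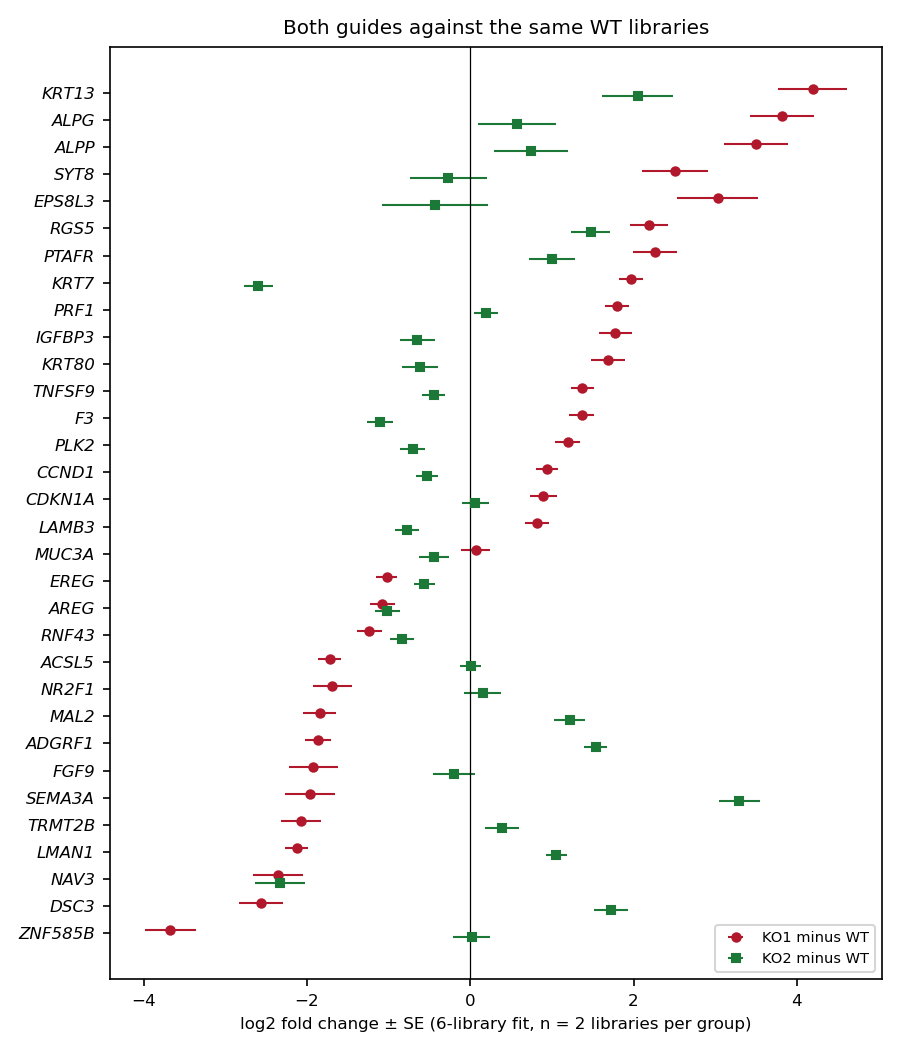
Log2 fold change with SE in the 6-library fit (n = 2 libraries per group) for KO1 minus WT (red circles) and KO2 minus WT (green squares), which share the WT libraries. KRT7, CCND1, LMAN1 and SEMA3A have the guides on opposite sides of 0, while AREG and NAV3 have them close together.

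For 97 genes the authors' deposited table had a log2 fold change beyond 1 in either direction and a p-value under 0.05 for KO1 against WT, 67 higher and 30 lower, the smallest change being 1.002. An adjusted p under 0.05 stood in the authors' deposited table for 6 of these, namely ALPG, ALPP, DPYSL5, KRT13, TCF21 and ZNF585B. Of the 97 genes, 90 met the count limit used here, and all 90 were called in the 4-library fit and 72 in the 6-library fit. For KRT7 and LMAN1 the authors' deposited table gives log2 fold changes of 1.98 and −2.11 with adjusted p of 1 and 0.344.

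Calls were spread over abundance and over the genome. In 5 bins of equal size by mean CPM the share called was 5.02%, 6.57%, 6.08%, 7.86% and 11.1% from the least to the most abundant, and the median size of a called change fell from 1.54 to 0.41 on the log2 scale, so a change in a rare gene had to be larger to pass. By chromosome, for those with over 100 tested genes, the share called ran from 5.28% on chromosome 15 to 10.1% on chromosome 21, and medians over 31 neighbouring genes lay between −0.22 and 0.22 on the log2 scale. Chromosome 7, which holds MUC3A, had 7.53% of its genes called and a median log2 fold change of −0.02.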

How the data were processed

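RNA extracted with TRIzol was poly(A)-selected and made into NEBNext Ultra libraries, per the labels' protocols. STAR, HTSeq 0.6.0, DESeq2 and the genome build hg18 are named, without roles, in the submitters' processing notes. No source names the strand setting, and overlapping, antisense and near-identical genes (KRT81 and KRT86, KRT16, KRT8, KRT18, FTL, FTH1, ALPP and ALPG, ZNF585A and ZNF585B) are uncertain. The main measurement is the raw read count per gene as the authors deposited it. Log2 fold changes and p-values deposited by the authors were used solely as described beside them. Per-sample columns not used numbered 40.

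Counts were fitted with edgeR 4.0.16 (R 4.3.3): TMM scaling, quasi-likelihood test, group and name prefix as terms, Benjamini-Hochberg adjustment over 12337 genes at 0.05. The SE is the log2 fold change divided by the root of F. CPM uses TMM-scaled totals, and log2 ratios per pair add a prior count of 2. The prefix was read as a pair because same-prefix libraries deviated together across genes, by a correlation of 0.888, with 2 pairs, and the replicate numbers in the labels could not be tied to the columns. limma 3.58.1 and DESeq2 1.42.0 gave alternatives. A fit on all 6 libraries gave KO2 values and the test of KO1 against KO2. Within groups, libraries differed by more than sampling noise (chi-square per degree of freedom 149 in WT and 125 in KO1), so none was counted as a copy. Totals allow 3 counts to show at 0.195 to 0.235 CPM.

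Named genes were MUC3A, the 12 largest rises and falls with groups apart (mean log2 CPM from 1 up), the 10 smallest p, the 6 most abundant called genes, up to 3 called members of each of 36 lists, any called gene with 0 reads in both libraries of a group, and the 4 called genes whose pairs differed most. Other list members and genes were named after their values were seen. Some genes are not reported or drawn here, but remain in the counts. The members and lists were chosen with earlier results of these data known. Hg18 counts were not placed on coordinates: GRCh38 gave the guide match, promoters and gene order. RefSeq (GRCh38.p14) gave the promoter sequences.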

Additional observations from a re-analysis of the deposited data

Results flagged for a closer look

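Among the results reported, 3 genes had log2 ratios of KO1 over WT of opposite sign in the HCT pair and in the HCT116 pair. MUC3A stood at −0.0047 and 0.1851, SPARC, a secreted matrix protein, at −1.1373 and 0.1525, and ZNF585A at 0.4346 and −0.1082. Each pair holds 1 library per group, so the difference between pairs was not tested.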

How the results depend on the processing

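The count of 903 genes (572 higher, 331 lower, 182 beyond 2-fold) rests on the pair term: with no replicate block the counts were 0, 0, 0 and 0. With all 6 libraries they were 154, 99, 55 and 88, and with DESeq2 262, 178, 84 and 96. At an adjusted p of 0.01 they were 576, 381 and 195 for all, higher and lower, with 143 beyond 2-fold. Leaving out each library in turn gave 68 to 218 genes, 36 to 166 higher, 30 to 52 lower and 52 to 146 beyond 2-fold, in a fit that assumes the lone library of a group to vary like the others. RLE scaling (860), no filter on low counts (838), edgeR's own filter (879) and limma-voom (829) stayed within 1.5 times of 903, and RLE moved the median of all genes by −0.0152 and gave 503 higher and 357 lower. Of 191 single-gene results, 190 missed the threshold without the block, 114 with 6 libraries, 89 with DESeq2 and 101 to 144 with a library left out, against 5 to 14 under the other settings. Reversals were few. MUC3A turned from 0.08 to −0.13 without the HCT116 library of WT and to −0.0285 without the HCT library of KO1, in a range of −0.13 to 0.3442. Without the HCT library of KO1, BNIP3 stood at −0.0722, P4HA1 at −0.0059 and ZNF585A at −0.0831 (up to 0.7052, 0.7165 and 0.4266 with another library left out), and without the HCT library of WT, SPARC stood at 0.0707 (down to −1.0436). For KO1 minus KO2 without the block, FTL was −0.0008, ID2 0.0154 and BCL6 0.0809. Of 192 such results, 110 passed with the block and missed the threshold without it. Another 79 had the same outcome in both, which includes missing the threshold in both. Of the 98 named called genes 0 passed without the block. The cause was not tested. Depth limits genes near 3 reads per library.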
